A study of Rattus norvegicus with 16 samples.

Results

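The collagen and laminin chains of the rat lung were followed here through every probe set whose single gene symbol on the array begins with Col or with Lama, Lamb or Lamc followed by a number. That rule took 50 of 15866 probe sets, and 37 of 10411 named genes: 29 collagen genes with 40 probe sets and 8 laminin genes with 10. 13 of the genes had more than 1 probe set. The rule reads gene symbols, not signals. The study set the spontaneously hypertensive rat (SH), which is inbred and has hereditary high blood pressure, beside the outbred Sprague Dawley rat (SD), each exposed to sulfur dioxide (SO2), an irritant gas, or to air. Lung total RNA, labelled with biotin, was hybridised to 16 arrays, 4 in each of the groups SH air, SH SO2, SD air and SD SO2, described as biological replicates. The labels used here state no dose, duration, age or sex, and say nothing further of how samples relate to animals. If arrays of a group shared an animal, the p-values would measure only technical spread. Replicate numbers follow, group by group, the rising number at the front of each sample title.

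Collagens are triple-helical proteins of the extracellular matrix. Fibrillar collagens (types I, III and V) form the tension-bearing fibres of airway walls, vessels and alveolar septa, made mainly by fibroblasts and smooth muscle cells, and fibril-associated collagens decorate those fibres. Type IV collagen and the laminins, cross-shaped trimers of an alpha, a beta and a gamma chain, build the basement membranes under lung epithelium and endothelium.

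Promoter sequence was at hand for 30 of the 37 genes. The 250 bases before the start site are shown, 5′ to 3′ on the coding strand, for the fibrillar genes Col1a2 and Col5a1 and the laminin genes Lamb1 and Lamc1, which have an entry and whose signals are described below. Col1a1, Col3a1 and Lamb2 are among the genes without one. They are RefSeq sequences of build GRCr8 and lie upstream of the annotated start of transcription. Capitals mark matches, on either strand, to the CCAAT box (CCAAT, or ATTGG on the other strand), the GC box (GGGCGG, or CCGCCC) and the TATA box (TATAAA).
Col1a2 (chr4:33518307-33518556, plus strand): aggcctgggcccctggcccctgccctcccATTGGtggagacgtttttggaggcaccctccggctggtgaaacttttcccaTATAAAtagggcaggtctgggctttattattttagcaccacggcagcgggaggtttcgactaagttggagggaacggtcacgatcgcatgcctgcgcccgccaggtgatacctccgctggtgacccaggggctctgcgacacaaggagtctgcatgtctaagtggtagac
Col5a1 (chr3:31606630-31606879, plus strand): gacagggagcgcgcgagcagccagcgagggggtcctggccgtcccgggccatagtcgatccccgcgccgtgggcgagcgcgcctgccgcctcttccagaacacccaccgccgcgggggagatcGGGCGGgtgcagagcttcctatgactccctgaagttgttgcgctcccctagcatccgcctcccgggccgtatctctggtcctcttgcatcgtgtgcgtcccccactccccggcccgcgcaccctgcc
Lamb1 (chr6:53562846-53563095, plus strand): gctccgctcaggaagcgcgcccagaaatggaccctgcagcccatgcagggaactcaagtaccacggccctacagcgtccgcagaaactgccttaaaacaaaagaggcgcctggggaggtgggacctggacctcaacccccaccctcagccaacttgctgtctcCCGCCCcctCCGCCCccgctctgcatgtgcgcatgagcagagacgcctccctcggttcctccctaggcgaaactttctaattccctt
Lamc1 (chr13:68051987-68052236, minus strand): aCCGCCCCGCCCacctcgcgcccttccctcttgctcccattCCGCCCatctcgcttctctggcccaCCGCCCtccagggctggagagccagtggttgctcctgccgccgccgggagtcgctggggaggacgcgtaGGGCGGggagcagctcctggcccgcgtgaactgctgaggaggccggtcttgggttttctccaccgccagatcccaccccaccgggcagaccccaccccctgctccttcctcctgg
A GC box stood in 16 of the 30 member promoters against 30.5% of all 33469 promoters of the same length, a CCAAT box in 7 of 30 against 34%, and a TATA box in 3 of 30 against 12.9%. The windows of Col4a1 and Col4a2, which are divergently arranged neighbours, share 76 bases and are not independent of each other. A match describes letters only. In Col1a2 the TATA box match begins at -170 from the annotated start, and where transcription starts in lung was not tested. No array value bears on these windows directly.

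All arrays carried lung: across them Sftpc (surfactant protein C) measured 24004 to 45111, Scgb1a1 (club cell secretory protein) 22863 to 36625, Ager (alveolar type I cells) 10829 to 19344 and Cldn5 (endothelium) 4608 to 9269, as linear signal. Median signals were 250.2 to 281.8 per array. 1 array stood against its label. Terf2ip and Cd36, whose signals separated the other air arrays by strain, were at 694 and 655 on the array labelled SD air replicate 2. SD air replicates 1, 3 and 4 measured 1982 to 2363 for Terf2ip and 1211 to 2495 for Cd36. SH air arrays measured 425 to 733 and 342 to 915. Most member counts that use SD air are therefore given with and without it. Differences of single genes, related lists and cell type markers are given without it only where stated, and otherwise rest on all arrays. The title numbers run from 40 to 43 in SH air and from 47 to 50 in SD SO2. They are 44 and 51 to 53 in SH SO2, and 45, 46, 54 and 55 in SD air. Any order of handling they reflect cannot be told apart from SH air or SD SO2, and only in part from SH SO2. Title number enters the fit as a straight line, which need not remove such runs. Lung tissue was measured in bulk, so fewer cells of a type and less RNA per cell cannot be told apart.

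36 member probe sets of 27 genes passed the filter on low signal, which left out the lowest 30% of probe sets by mean log2 signal without regard to group. The other 14 were both probe sets of Col2a1 and of Col11a1, those of Col5a3, Col7a1, Col9a1, Col10a1, Col11a2, Col19a1, Col27a1 and Lama1, and 1 of the probe sets each of Col6a2 and Lama5. Their means over 16 arrays ran from 2.09 (Col11a1) to 100.2 (Col7a1). Col2a1, Col9a1, Col10a1 and Col11a1 are best known from cartilage. The filter fell at a signal of 109 as a geometric mean: Col7a1 (89.6) and Col10a1 (89.3) lay just outside it, and 1 probe set each of Col12a1 (121) and Col14a1 (138) just inside. Signals of different probe sets are not compared with each other here.

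In air, where the strains were compared without SO2, all 9 tested fibrillar probe sets gave a difference, SH minus SD, below 0, with a median of -0.41. These probe sets stand for Col1a1, Col1a2, Col3a1, Col5a1 and Col5a2 only. Each of these genes but Col3a1 has more than 1, so they are not independent observations. No fibrillar probe set passed the adjusted threshold with all arrays, and Col3a1 did when 1 doubtful SD array was left out. With all arrays, limma called 0 of 36 member probe sets at an adjusted p under 0.05, and 0% of the 11106 probe sets tested. At an unadjusted p under 0.05 6 members passed, all with SH below SD: both probe sets of Col1a1, and Col1a2, Col3a1, Col4a1 and Col5a1. Over all features, 6.38% passed that threshold and 3.07% did so with SH below SD. Without the array labelled SD air replicate 2, limma called 86 features (0.774%) and 1 member, Col3a1. Differences are log2 SH minus log2 SD of the signal plus 16, so a value below 0 means a lower level in SH rats and low signals are pulled towards 0.

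Col3a1 encodes type III collagen, the fibre of distensible tissues such as lung and vessel wall. It measured 4991, 4654, 4649 and 4434 on the 4 SH air arrays. In SD air it measured 6729.8, 4522, 7944 and 7422. All SH air arrays lay below 3 of the 4 SD air arrays, and the exception was replicate 2, the lowest of its group. Group means were 4682 ± 230.3 and 6655 ± 1506 (± standard deviation, n = 4), the latter 7365 ± 609 (± standard deviation, n = 3) without replicate 2. The difference was -0.48 (SE 0.166, limma adjusted p = 0.523) with all arrays. Col3a1 was lower in SH rats, at -0.65 (SE 0.149, limma adjusted p = 0.0459), once replicate 2 was left out. With title number added to the fit it was -0.045.

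The chains of type I collagen, the main load-bearing fibre, gave differences of the same sign. Col1a1 (1388116_at) measured 1439, 1209, 1498 and 1086 in SH air. On the SD air arrays it measured 1774, 1327, 2789 and 1727. The groups overlapped, through replicate 2 of SD air, and replicate 3 was the highest. The difference was -0.50 (SE 0.204, limma adjusted p = 0.683), and -0.65 without replicate 2. The second Col1a1 probe set (1370864_at) gave -0.74 (SE 0.31, limma adjusted p = 0.687). Col1a2 (1370155_at) measured 3591, 2817, 4578 and 3287 in SH air. In SD air it measured 5189.7, 3856, 5979.7 and 3072, where replicates 2 and 4 lay among the SH air arrays. Col1a2 gave -0.32 (SE 0.197, limma adjusted p = 0.84) for this probe set and -0.41 (SE 0.185, limma adjusted p = 0.752) for 1387854_at, with overlapping groups for both. No type I probe set passed the adjusted threshold with or without replicate 2.

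Type V collagen chains seed fibrils and set their diameter. Col5a1 (1369955_at) measured 365, 397, 401 and 352 in SH air. In SD air it measured 465, 432, 774 and 533. Every SD air array lay above every SH air array. The difference was -0.49 (SE 0.178, limma adjusted p = 0.573), -0.59 (adjusted p = 0.229) without replicate 2 and -0.32 without replicate 3. The other Col5a1 probe set (1376099_at) differed by -0.15 and Col5a2 (1370895_at) by -0.14. Col4a1, a basement membrane chain, was the other member without overlap: its probe set 1372439_at measured 2404, 2166, 2694 and 2260.4 in SH air. Its SD air values were 2842, 2908, 2922 and 2823, a narrow range above all 4 SH air arrays. That difference was -0.27 (SE 0.104, limma adjusted p = 0.604). The second Col4a1 probe set gave -0.14 (SE 0.131, limma adjusted p = 0.914), and Col4a2, its partner chain in type IV collagen, gave -0.10 (SE 0.123, limma adjusted p = 0.951).

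**Figure D1:**
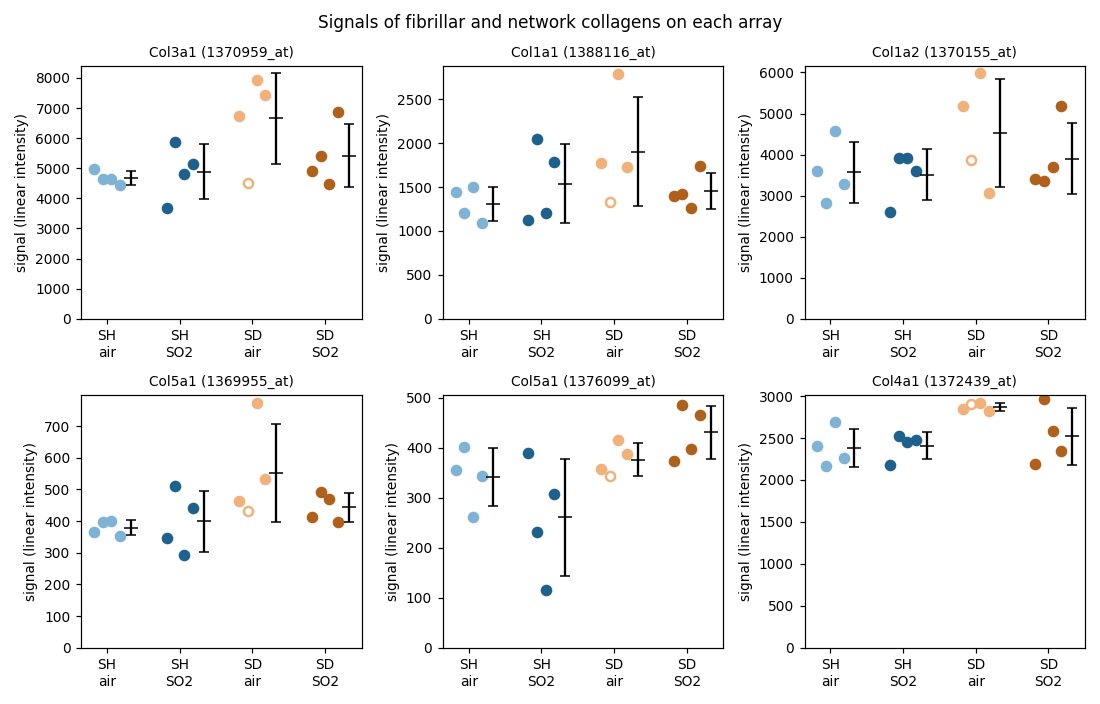
Linear signal of 6 collagen probe sets in each of the 4 groups, with 1 dot per array and bars for mean ± standard deviation (n = 4). The open circle is the array labelled SD air replicate 2, which measured 4522 for Col3a1 while the other SD air arrays measured 6730 to 7944.

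31 of 36 tested member probe sets lay below 0 in air, with a median of -0.14, where 49.7% of all features did, with a median of 0.00096. With SD air replicate 2 left out, 29 of 36 lay below 0 (51.7% of all features). The 5 probe sets of network-forming basement membrane chains (Col4a1, Col4a2, Col4a4 and Col4a5) had a median of -0.14, and the 8 laminin probe sets -0.061, 6 of them below 0. The fibrillar median was -0.50 without SD air replicate 2, -0.20 without SD air replicate 3 and -0.14 with title number added to the fit. In place of 6 members at unadjusted p there were 8 without SD air replicate 2 (9.73% of all features, 4.58% with SH below SD), 3 without SH air replicate 2, and 3 without SD air replicate 3, of which 2 were lower and 1 higher in SH. With title number in the fit, 0 members passed with SH below SD and 1 with SH above. Apart from the fits without SD air replicate 2, such changed counts at an unadjusted p are given, here and below, without a share of all features. They describe how the member counts moved and do not set members apart from all features. The groups did not overlap for 2 members, Col4a1 and Col5a1, where 4.02% of all features did not and 2.06% did not with SH below SD. Without replicate 2 that number was 7 (11.3% of all features, 5.63% with SH below SD), all with SH below SD: Col14a1, both Col1a1 probe sets, Col3a1, Col4a1, Col4a5 and Col5a1.

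SD air replicate 3 held the highest of all 16 signals in 7 of the 9 fibrillar probe sets. Its fibrillar median deviation from the mean over arrays was 0.66, against 0.19, -0.068 and 0.20 on replicates 1, 2 and 4. On the same array the median deviation was 0.51 for 7 smooth muscle markers, 0.77 for 7 heart muscle markers and 0.20 for 9 fibroblast markers. Sums were taken over all markers on the array, tested or not: 7 of smooth muscle, 8 of heart muscle and 11 of fibroblasts. Smooth muscle sums ran from 5865 to 7147 in SH air and from 6243 to 11901 in SD air. In the same order, heart muscle sums ran from 2600 to 4123 and from 2495 to 4998, and fibroblast sums from 21653 to 26885 and from 23046 to 26690. Between the strains in air, 7 of 7 smooth muscle, 6 of 9 fibroblast and 3 of 3 pericyte markers lay below 0, with medians of -0.14, -0.07 and -0.37. Twist1, 1 of the fibroblast markers, was below the 10th percentile of signal on every SD air and SD SO2 array. Their part in the fibrillar result was not tested.

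**Figure D2:**
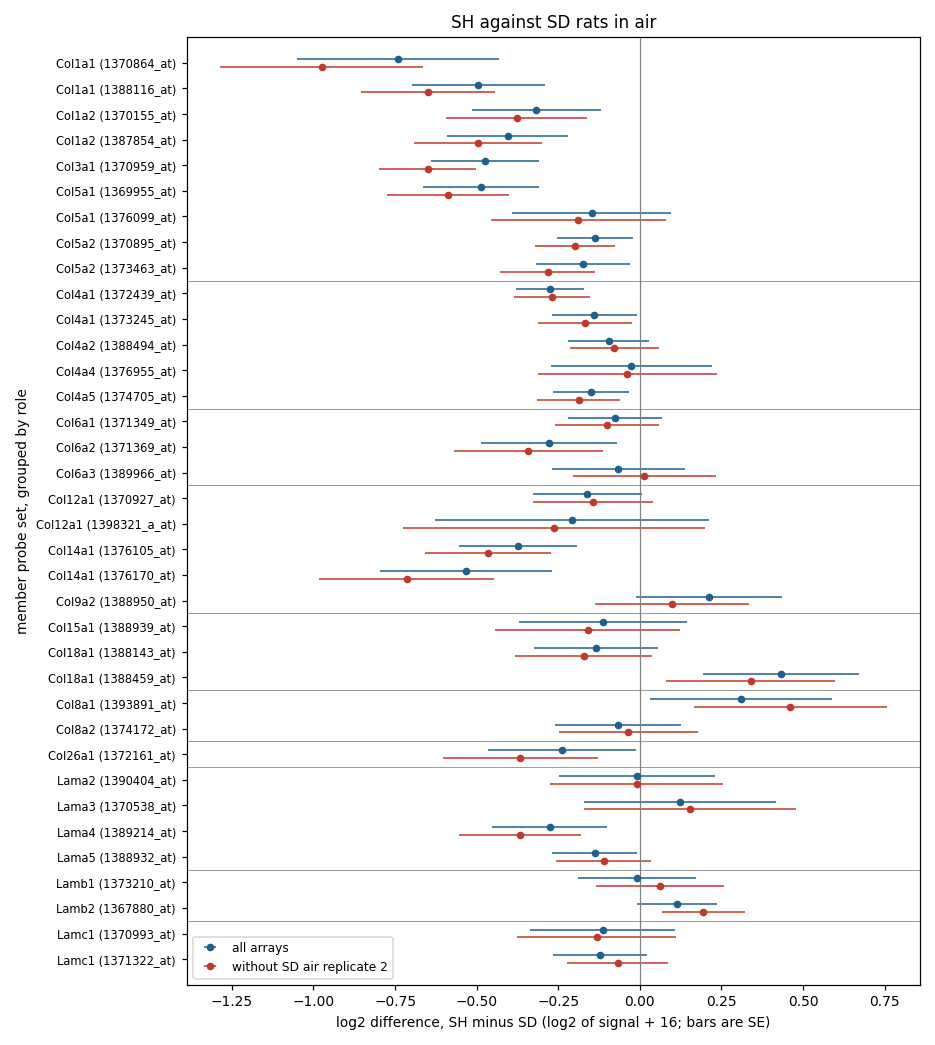
Log2 difference between SH and SD rats in air for each of the 36 tested member probe sets, with bars for SE, using all arrays (blue) and leaving out the array labelled SD air replicate 2 (red). Most points lie left of 0, and those of the fibrillar collagens move further left without that array, to a median of -0.50.

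In SO2, where SH and SD rats both labelled as SO2 exposed were compared, the members nearest the threshold were the laminin beta chain Lamb1 and Col5a1, on opposite sides. limma called 90 features (0.81%) but 0 of 36 members. At an unadjusted p under 0.05 there were 4 members, where 10.1% of all features passed: Col5a1 with SH below SD (5.09% of all features), and Col8a1, Lamb1 and Lamc1 with SH above (5.06%). Without SD air replicate 2, 1.04% of all features and 0 members were called. The same 4 genes passed an unadjusted p under 0.05, where 10.2% of all features did. The median over members was 0.013, against 0.00042 over all features. The member median was -0.0094 with title number in the fit and -0.015 with array quality measures in it. Laminins had a median of 0.18, with 6 of 8 above 0. The count of 4 was 2 without SH SO2 replicate 4.

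Lamb1 encodes the beta chain of laminins that form early basement membranes. It measured 598, 777, 564 and 479 on the SH SO2 arrays. On the SD SO2 arrays it measured 375, 458, 362 and 286. Every SH array lay above every SD array, the only member of 36 without overlap in SO2, where 5.58% of all features had none and 2.82% had none with SH above. Means were 605 ± 125 and 370.4 ± 70.7 (± standard deviation, n = 4), and the difference was 0.68 (SE 0.181, limma adjusted p = 0.105). It was called, with an adjusted p of 0.041, in the fit that left out SD air replicate 3, an array that enters only through the pooled spread.

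Col5a1 (1376099_at) measured 389.8, 231, 115 and 308 in SH SO2. In SD SO2 it measured 374, 487, 397 and 466. SH SO2 replicate 3 was the lowest and the groups overlapped through replicate 1. The difference was -0.80 (SE 0.242, limma adjusted p = 0.156). Without SH SO2 replicate 1 it was -1.02 and called (adjusted p = 0.0472), and without replicate 3 it was -0.48. It was also called (adjusted p = 0.0131) with each array's 10th percentile of signal and 3′ to 5′ actin ratio in the fit. Those measures were 22.6 ± 4.12 and 2.14 ± 0.77 in SH SO2 and 21.5 ± 3.49 and 1.91 ± 0.689 in SD SO2 (± standard deviation, n = 4). The other Col5a1 probe set (1369955_at) differed by -0.17, so the probe sets of this gene gave different sizes. Col8a1, a short-chain collagen of vessel walls, measured 416, 370.1, 256 and 498 in SH SO2. Its SD SO2 values were 274, 307, 118 and 286, overlapping with SH SO2, and the difference was 0.65 (SE 0.28, limma adjusted p = 0.398). Lamc1, the gamma chain shared by most laminins, gave 0.31 (SE 0.143, limma adjusted p = 0.466) for 1371322_at, where the SH SO2 arrays measured 1186, 1239, 1533 and 1262. Its SD SO2 arrays measured 996, 1049.8, 1222 and 929, overlapping only between the lowest SH and the highest SD array. The second Lamc1 probe set (1370993_at) gave -0.16, of opposite sign. Lamb2 gave 0.18 (SE 0.123, limma adjusted p = 0.679) and Lama5, the main alpha chain of mature lung basement membranes, -0.041 (SE 0.131, limma adjusted p = 0.952). Type I and III collagen differences in SO2 ran from -0.15 for Col3a1 to 0.046 for Col1a1 (1388116_at).

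Markers of other cell types were read in the same comparison. 7 of 7 heart muscle markers lay above 0 (median 0.64), with Tcap called at 1.08 (limma adjusted p = 0.0407), and 6 of 7 smooth muscle markers lay below 0 (median -0.28). Of 9 fibroblast markers 5 lay above 0 (median 0.087), and at an unadjusted p 1 passed above 0 and 1 below. The one above, Cdh11, was called (0.70, limma adjusted p = 0.024). Fibroblast sums, over all 11 markers on the array, were 19518 to 23573 in SH SO2 and 21929 to 24170 in SD SO2. Heart muscle sums, over the 8 on the array, were 2841 to 4547 in SH SO2 and 1586 to 2971 in SD SO2. Their part in the laminin and collagen values was not tested.

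**Figure D3:**
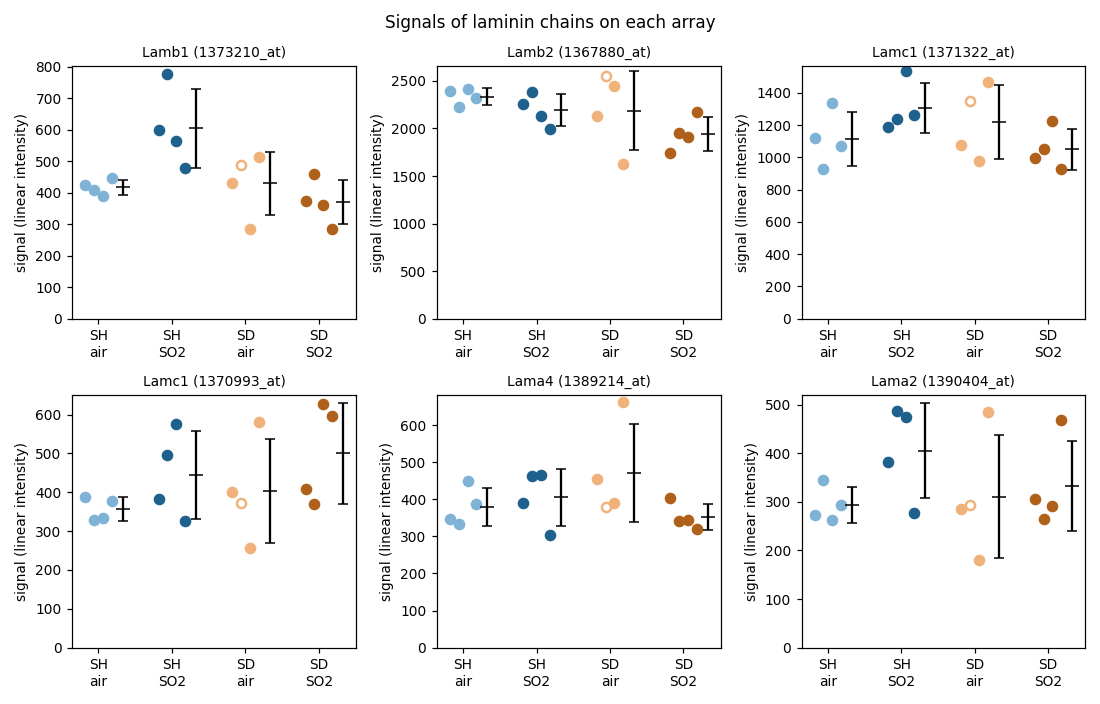
Linear signal of 6 laminin probe sets in each of the 4 groups, with 1 dot per array, bars for mean ± standard deviation (n = 4) and an open circle for the array labelled SD air replicate 2. For Lamb1 the 4 SH SO2 arrays measured 479 to 777 and lay above all SD SO2 arrays.

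Within SH rats, SO2 was set against air to ask what exposure did in the hypertensive strain. limma called 0 of 36 members and 0% of all features. 1 member, Lamb1, passed an unadjusted p under 0.05, where 4.84% of all features did and 2.44% did with SO2 above air. It was also the only member whose groups did not overlap, against 4.17% of all features, 2.15% with SO2 above air. In SH air Lamb1 measured 426, 410.1, 390.3 and 446, a narrow range below all 4 SH SO2 values given above. The SO2 minus air difference was 0.50 (SE 0.181, limma adjusted p = 0.949), and 0.37 to 0.60 with 1 array left out in turn. 7 of 8 laminin probe sets lay above 0, with a median of 0.17. Among them Lama2, the alpha chain of muscle and nerve basement membranes, gave 0.42 (SE 0.239, limma adjusted p = 0.949), Lamc1 (1371322_at) 0.23 and Lamb2 -0.093, the value below 0. Over members the median was 0.076, with 27 of 36 above 0 where 53.6% of all features were. With arrays centred on their medians instead, 20 of 36 were above 0, and with title number in the fit 19 were.

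Fibrillar collagens in SH rats had a median SO2 minus air difference of 0.042, with 2 of 9 below 0. That median turned to -0.013 (5 of 9 below 0) with arrays centred on their medians and to -0.22 (7 of 9) with title number in the fit. Col3a1 measured 3685, 5884, 4817 and 5155 in SH SO2, wider than in SH air on both sides, and differed by 0.042 (SE 0.166, limma adjusted p = 0.983). Col1a1 (1388116_at) measured 1127, 2042, 1206 and 1787 in SH SO2, with replicates 2 and 4 above all SH air arrays and replicates 1 and 3 among them. Its difference was 0.20 (SE 0.204, limma adjusted p = 0.96). Col1a2 (1370155_at) differed by -0.021, Col4a1 (1372439_at) by 0.02 and Col4a2 by -0.092. Col5a1 (1376099_at), the member of smallest p after Lamb1, gave -0.47, and -0.69 to -0.15 with 1 array left out in turn. The other Col5a1 probe set lay above 0. Next by p, the fibril-associated Col14a1 (1376105_at) gave 0.34. The count of 1 at unadjusted p was 0 without SH SO2 replicate 2, 4 without SH air replicate 3, 3 without SH SO2 replicate 4, and 2 without SH SO2 replicate 1 or with title number in the fit.

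Within SD rats, the same comparison gave mostly values below 0 and no call. limma called 0 of 36 members and 0% of all features. 2 members, Col6a2 and Lama4, passed an unadjusted p under 0.05, both with SO2 below air, where 8.24% of all features passed and 3.83% did so in that direction. 29 of 36 members lay below 0 (median -0.12), against 46.6% of all features (median 0.017). The groups overlapped for all 36 tested members, and did not for 3.54% of all features. Without SD air replicate 2, 26 of 36 lay below 0 (48.4% of all features), and the groups did not overlap for 2 members, Col4a5 and Col5a2 (6.8% of all features, 3.01% with SO2 below air).

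Col6a2 (1371369_at), a chain of the beaded filaments around cells, measured 601, 688, 1087 and 863 in SD air. In SD SO2 it measured 358, 628, 649.6 and 677. SD air replicate 3 was the highest, SD SO2 replicate 1 the lowest, and the groups overlapped. The difference was -0.48 (SE 0.209, limma adjusted p = 0.571). Lama4, the alpha chain of endothelial basement membranes, measured 456, 378, 389.5 and 662 in SD air. Its SD SO2 values were 403, 340.5, 343 and 320, and the groups overlapped because of SD SO2 replicate 1. That difference was -0.38 (SE 0.176, limma adjusted p = 0.591).

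8 of 9 fibrillar probe sets lay below 0 in SD rats, with a median of -0.27. The median was -0.36 without SD air replicate 2 and -0.08 without SD air replicate 3, the array with the highest fibrillar signals. Col3a1 measured 4901, 5393, 4487 and 6874 in SD SO2, where replicate 4 was the highest and the range overlapped that of SD air, and differed by -0.28 (SE 0.166, limma adjusted p = 0.678). Without SD air replicate 2 that was -0.46 (SE 0.149, limma adjusted p = 0.45). Col5a2 (1370895_at) measured 2331, 2109, 2619.9 and 2575 in SD air. In SD SO2 it measured 1851, 2302, 1932 and 2141, overlapping with SD air through replicate 2 of the air group. The difference was -0.23 (SE 0.116, limma adjusted p = 0.639). The basement membrane chain Col4a1 (1372439_at), next by p, gave -0.20. Col1a1 (1370864_at) gave -0.31 with all arrays and 0.016 without SD air replicate 3. The count of 2 at unadjusted p was 5 without SD air replicate 2 (Col1a1, Col3a1, Col5a2, Col6a2 and Lama4, where 8.25% of all features passed and 3.68% did with SO2 below air). In that fit limma called 0 members and 0% of all features. The count was 4 without SD SO2 replicate 2, and 1 with title number in the fit or without any 1 of SH air replicates 1 and 4, SD air replicate 1 and SD SO2 replicates 1 and 3. It was 0 with array weights or with only the arrays of the groups compared. It was 1 with the replicate block or with array quality measures in the fit, and 3 with arrays centred on their medians. Laminins had a median of -0.089, and Lamb1 gave -0.19. The probe sets of Lamc1 disagreed, at 0.32 for 1370993_at and -0.20 for 1371322_at. 7 of 7 heart muscle markers lay below 0 in this comparison (median -0.47) and 7 of 7 smooth muscle markers above (median 0.25). Their part in these values was not tested.

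**Figure D4:**
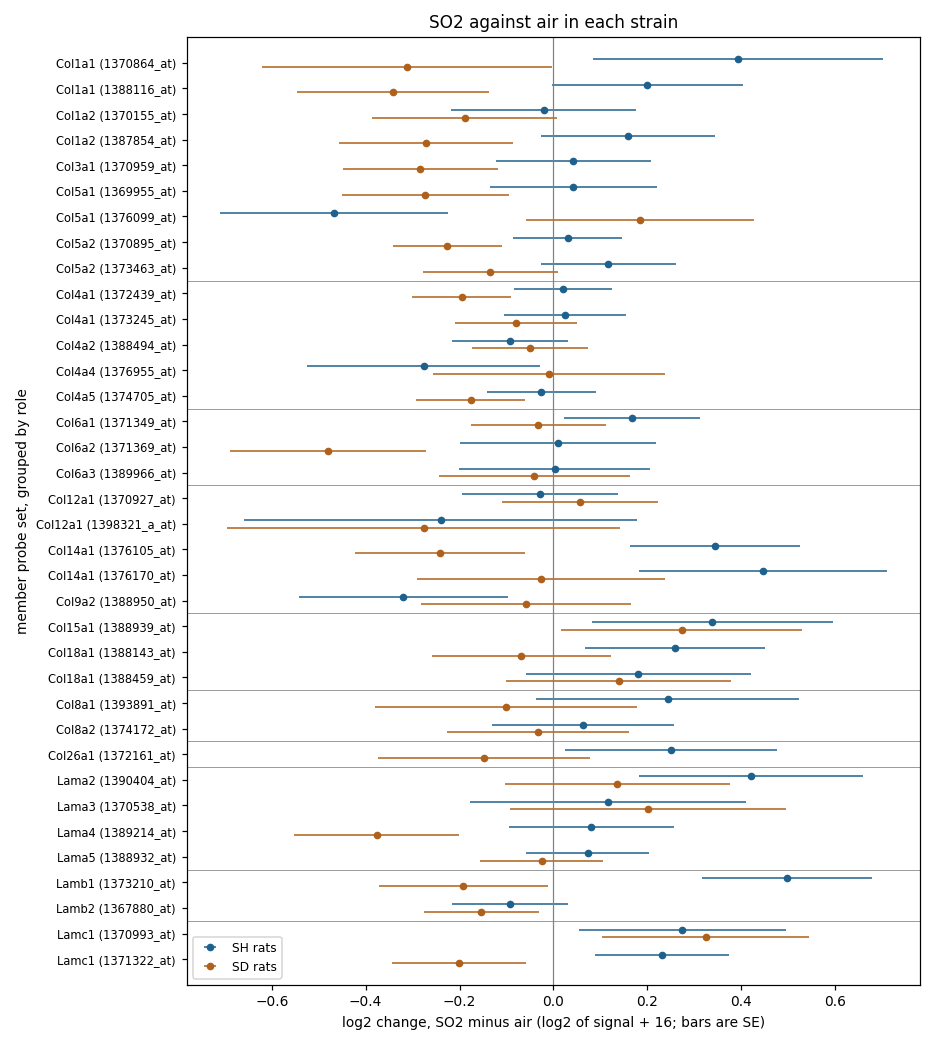
Log2 difference between SO2 and air for each of the 36 tested member probe sets in SH rats (blue) and SD rats (brown), with bars for SE. 27 of 36 points lie above 0 in SH rats and 29 of 36 lie below 0 in SD rats.

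Whether SO2 acted differently in the strains was tested by the difference between the SO2 effects, SH minus SD. limma called 0 of 36 members and 0% of all features. 3 members passed an unadjusted p under 0.05, where 4.65% of all features did and 2.17% did above 0: Lamb1 at 0.69 (SE 0.256, limma adjusted p = 0.981), Lamc1 (1371322_at) at 0.43 (SE 0.203, limma adjusted p = 0.981) and Col14a1 (1376105_at) at 0.59 (SE 0.256, limma adjusted p = 0.981). Col14a1 encodes a fibril-associated collagen. It measured 234, 219, 344 and 303 in SH air and 308, 438, 316 and 343 in SH SO2. In SD rats it measured 402, 291, 417 and 325 in air and 375, 248, 259.8 and 326 in SO2, with overlap within both strains. 29 of 36 members lay above 0, where 50.2% of all features did (median 0.21, against 0.0011 over all features), and the fibrillar median was 0.32. With title number in the fit 21 of 36 lay above 0, with a median of 0.052, and the fibrillar median turned to -0.039 (5 of 9 below 0). With SD air replicate 2 left out, 27 of 36 lay above 0 (51.6% of all features). The count of 3 was 1 without SH air replicate 1 or SH air replicate 2 or with title number in the fit, and 6 without SH SO2 replicate 1 or SD air replicate 2, the last against 5.91% of all features with 0% called. Without SD air replicate 2 the members that passed were of Col14a1, Col1a1, Col3a1, Lama4 and Lamb1, and Lamc1 was not among them. All 4 groups enter this difference, which therefore shares its arrays with the comparisons above.

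Averaged over exposures, SH and SD rats differed in 170 features (1.53%) and in 0 of 36 members by limma at an adjusted p under 0.05. 7 members passed an unadjusted p under 0.05, where 11.6% of all features did: Col18a1, Col8a1 and Lamb1 with SH above SD (6.05% of all features), and Col3a1, Col4a1 and both Col5a1 probe sets with SH below (5.58%). Col18a1 (1388459_at), whose protein is a basement membrane collagen that carries endostatin, measured 226, 267, 249 and 163 in SH air and 206, 249, 279.6 and 293 in SH SO2. In SD rats it measured 122, 130, 262 and 160.1 in air and 136, 213, 246 and 143 in SO2, overlapping with SH rats. The averaged difference was 0.45 (SE 0.169, limma adjusted p = 0.248) for this probe set. The other Col18a1 probe set (1388143_at) gave 0.03. Its mean signal without SO2 was 321 for SH rats against 348 for SD rats. With exposure it was 380 against 339. The probe sets of this gene therefore had opposite signs in air. All 9 tested fibrillar probe sets lay below 0, where 49.6% of all features did, with a fibrillar median of -0.23. With title number in the fit that median was -0.14 (7 of 9 below 0) and the count of 7 was 2. Without SD air replicate 2, 10 members passed an unadjusted p under 0.05 (12.9% of all features), 4 with SH above SD (6.85%) and 6 below (6.01%). Col4a1 no longer passed there, while Col14a1, Col1a1 and Lamb2 did. In that fit 274 features (2.47%) were called with 1 member among them: Col3a1 was lower in SH rats, at -0.40 (SE 0.101, limma adjusted p = 0.0403). Averaged over strains, SO2 against air gave 0 called members, 0% of all features called, and 0 members at an unadjusted p under 0.05 where 8.45% of all features passed. The members of smallest p there included Col15a1 at 0.31 (SE 0.182, limma adjusted p = 0.66) and Lamc1 (1370993_at) at 0.30 (SE 0.156, limma adjusted p = 0.607). That count of 0 was 4 without SD air replicate 4 and 3 with title number in the fit, again without a share of all features beside it.

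**Figure D5:**
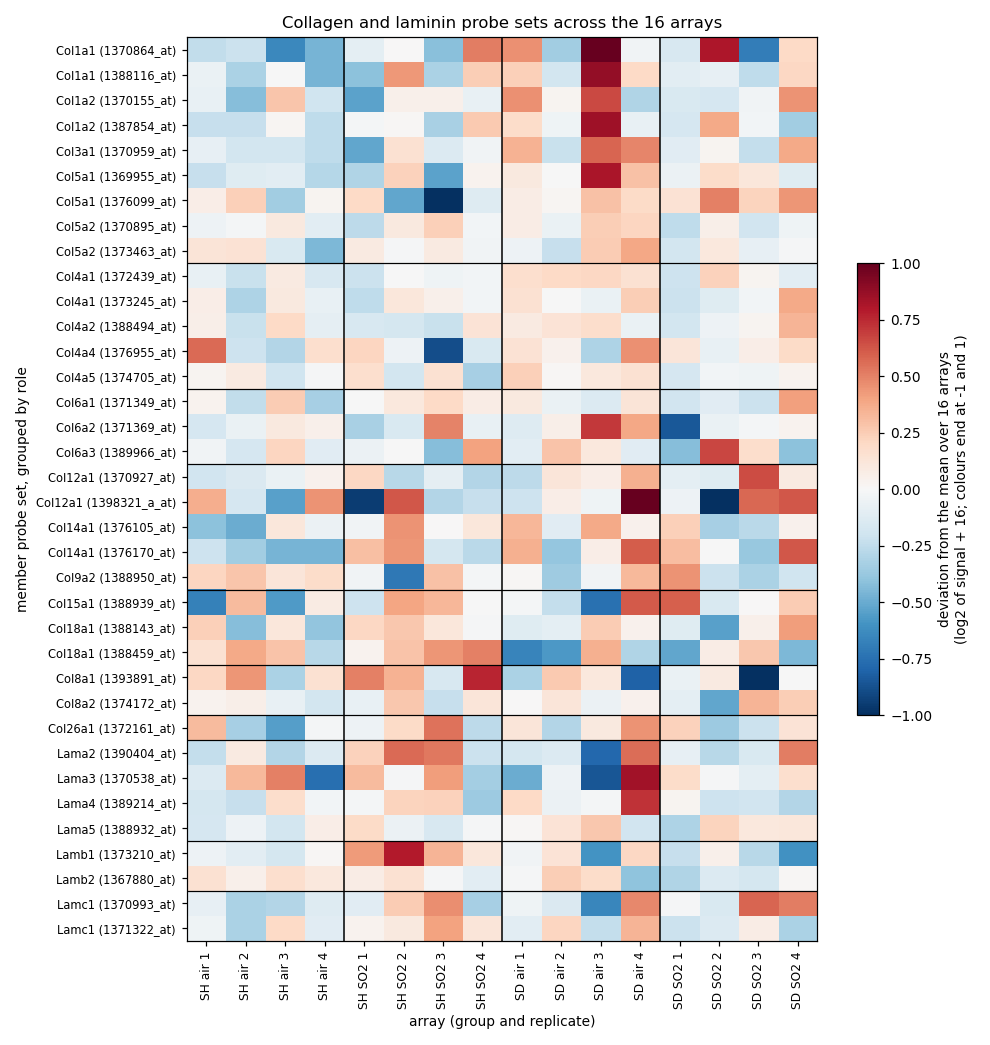
Deviation of each of the 36 tested member probe sets from its mean log2 signal on each of the 16 arrays, grouped by role, with colours ending at -1 and 1. The column of SD air replicate 3 is high across the fibrillar rows, 7 of 9 of which have their highest value there.

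Genes that make, cross-link, bind or degrade these proteins were read from lists, each gene by its probe set of highest mean. limma called 2 of them in any comparison with all arrays, both between the strains averaged over exposures. Loxl1, an oxidase that cross-links elastin and collagen, was lower in SH rats, at -0.56 (SE 0.14, limma adjusted p = 0.0471). Itga3, the alpha subunit of a laminin-binding integrin, was higher in SH rats, at 0.29 (SE 0.0667, limma adjusted p = 0.0274). In SH air Loxl1 measured 322, 256, 338 and 240.4. In SD air it measured 476, 565, 961 and 512, all above SH air. Over the 16 fits with 1 array left out, Loxl1 was called in 5 (adjusted p 0.0317 to 0.108): those without SH SO2 replicate 4, SD air replicates 1, 2 or 4, or SD SO2 replicate 1. Itga3 was called in 7 (0.00991 to 0.0737): those without SH air replicate 4, SH SO2 replicate 3, SD air replicates 2 or 4, or SD SO2 replicates 2, 3 or 4. With title number in the fit Loxl1 was at -0.40 (adjusted p = 0.417) and Itga3 at 0.24 (0.263). Neither call held with arrays centred on their medians or with no mean-variance trend, where the adjusted p was 0.0696 and 0.0702 for Loxl1 and 0.0723 and 0.0683 for Itga3. The Loxl1 call also ended with quantile normalization (0.0582), with no filter (0.0771) and with array quality measures in the fit (0.0645).

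Of 20 tested genes of collagen synthesis, folding, processing and cross-linking (34 in the list), 2 passed an unadjusted p with SH below SD in air and 0 with SH above, where 3.07% and 3.31% of all features did. The median was 0.07. In SO2 the counts were 0 above and 1 below (5.06% and 5.09% of all features), within SH rats 0 with SO2 above air and 1 below (2.44% and 2.4%), and within SD rats 1 and 2 (4.41% and 3.83%). The pair in air were Loxl1, at -1.03 (SE 0.197, limma adjusted p = 0.0816), and Lox, the lysyl oxidase, at -0.79 (SE 0.192, limma adjusted p = 0.179). Lox measured 448, 483, 325 and 362 in SH air. In SD air it measured 802, 528, 841 and 691, with every array above SH air. Without SD air replicate 2 both were called lower in SH rats, Loxl1 at -1.06 (adjusted p = 0.0238) and Lox at -0.93 (adjusted p = 0.0291). With title number in the fit Loxl1 was at -0.64 and Lox at -0.94 (adjusted p = 1 for both), and with array weights Loxl1 was called (adjusted p = 0.0376). Bmp1, which cleaves procollagen, measured 901, 838, 853 and 1030.1 in SD air. In SD SO2 it measured 1003, 1925, 1545 and 1831, where 3 of 4 arrays lay above all SD air arrays. That difference was 0.75 (SE 0.162, limma adjusted p = 0.242). Serpinh1, the collagen chaperone, gave, for SO2 minus air, -0.39 (SE 0.0956, limma adjusted p = 0.232) averaged over strains.

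The other lists held 11 tested receptors, 9 basement membrane partners and 11 fibril-associated proteoglycans and glycoproteins. They also held 10 genes of collagen degradation and 16 of the transforming growth factor beta pathway. In each comparison with all arrays, limma called 0 genes of these lists apart from Itga3. In air, their counts at an unadjusted p were 1 higher and 0 lower in SH, 0 and 0, 1 and 1, 0 and 1, and 0 and 1, in that order. In SO2 they were 1 and 1, 0 and 0, 2 and 1, 1 and 0, and 3 and 0. Within SH rats the counts with SO2 above and below air were 1 and 1, 0 and 0, 0 and 0, 2 and 0, and 2 and 0. Within SD rats they were 2 and 0, 0 and 1, 0 and 0, 0 and 2, and 1 and 1. The shares of all features given for the first list apply to these counts as well. The degradation list was drawn up with protease inhibitors (Timp1, Timp2 and Timp3) beside proteases, and the pathway list with inhibitors such as Smad7. Their counts therefore give no direction of degradation or of signalling. Ccn2, a matricellular protein induced by that pathway, measured 4949, 4709, 4864 and 5872 in SH air. In SH SO2 it measured 9896, 7489, 8060.3 and 8419, all above SH air. The difference was 0.73 (SE 0.201, limma adjusted p = 0.653). Ogn, a small fibril-binding proteoglycan, was called higher in SH rats averaged over exposures without SD air replicate 2, at 0.75 (limma adjusted p = 0.0341), and gave 0.67 (SE 0.182, limma adjusted p = 0.0724) with all arrays, or 0.70 and called (adjusted p = 0.0477) with array weights. Lum, lumican, which binds collagen fibrils, gave, for SH minus SD in SO2, 0.69 (SE 0.174, limma adjusted p = 0.08). Mmp2, a gelatinase, gave, for SH minus SD in air, -0.40 (SE 0.147, limma adjusted p = 0.573).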

How the data were processed

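16 lung RNA samples were measured on Affymetrix arrays. Per the labels and the deposited table, the authors gave 1 linear signal intensity per probe set and array, made with GCOS, per the submitters' processing notes; the sources used here do not give its algorithm or settings. The values were already scaled: means after leaving out 2% at each end were 500.1 on every array. The 57 control probe sets were left out, and 15866 remained, of which 12783 had 1 symbol, 312 several and 2771 none. All 50 member probe sets matched RefSeq by Entrez number. The offset 16 was added, log2 taken, the lowest 30% by mean left out, and group means fitted in limma 3.58.1 (R 4.3.3) with a mean-variance trend, 12 residual degrees of freedom, 7 comparisons and Benjamini-Hochberg adjustment over 11106 probe sets. The code was tested on simulated data.

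Genes described are members called in any comparison, the 4 members of smallest p in each, Col1a1, Col1a2, Col3a1, Col4a1, Col4a2, Lama5, Lamb1, Lamb2 and Lamc1, and for each related list up to 3 genes of smallest p. Not every such gene is given with its value in every comparison. Terf2ip and Cd36 were added to check strain. Members and lists were chosen with earlier results of these data known. The number of arrays limits precision. Alternatives changed the offset, filter, scaling, probe set averaging, array weights, covariates, replicate block and arrays used. Promoters came from a RefSeq table. Figures used matplotlib 3.10.9.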

Additional observations from a re-analysis of the deposited data

Results flagged for a closer look

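3 of 104 groups of 4 arrays, over 26 described probe sets, had 1 array far from the other 3 by Dixon's criterion, which chance meets in about 1 in 20 groups. Col4a2 measured 3165.8 on SH SO2 replicate 4, against 2461.5 to 2571.3 on the other SH SO2 arrays. Col6a2 (1371369_at) measured 358 on SD SO2 replicate 1, against 627.9 to 676.9 on the others. Col1a2 (1387854_at) measured 1456.2 on SH air replicate 3, against 1197.8 to 1219.3. No member's SO2 effect differed between the strains at an adjusted p under 0.05.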

How the results depend on the processing

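The count of called members was 0 under every alternative, including the replicate block, in the SO2 comparisons in SH rats, in SD rats, averaged over strains, and for the difference between the strains' SO2 effects. It was 1 in place of 0 with 2 array quality measures (the signal's 10th percentile, the 3′ to 5′ actin ratio) as covariates in SO2 (Col5a1, adjusted p = 0.0131) and averaged over exposures (Col5a1, adjusted p = 0.0154). With 1 array left out in turn, the member counts ran from 0 to 1 between strains in air (1 without SD air replicate 2), in SO2 (1 without SH SO2 replicate 1 or SD air replicate 3) and averaged over exposures (1 without SD air replicate 2), and from 0 to 0 in the other comparisons. The features called in those fits, out of all tested, ran from 0 to 86 in air, 50 to 115 in SO2 and 112 to 274 averaged over exposures. For SO2 against air they ran from 0 to 1 in SH rats, 0 to 3 in SD rats and 0 to 11 averaged over strains. Replicate numbers follow title order and mark no known pairing. Over 24 same-numbered pairs the correlation of deviations ran from -0.43 to 0.15, 4 over 0.1, and 4 correlated best with their own number. As the numbers are not labels of a shared day or animal, these values cannot show whether samples were paired in another way. With the replicate block limma called 0 members in each of the 7 comparisons, and 1 to 7 passed an unadjusted p under 0.05. The block ended the averaged Itga3 call (adjusted p = 0.0565) and kept that of Loxl1 (0.0354).

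Signs turned as follows. In SH rats, SO2 against air, Col1a2 (1370155_at) gave -0.021, but 0.0082 with quantile normalization, 0.069 with probe sets averaged and 0.11 with those covariates; Col3a1 gave 0.042, but -0.013 with arrays centred on their medians, -0.39 with the title number and -0.046 with those covariates. Col1a1 (1388116_at) gave 0.20 there and -0.22 with the title number. Between strains in air, Lamb1 gave -0.0077, and 0.0061 with arrays centred. In SO2, Col1a1 (1370864_at) gave -0.037, but 0.0048 with probe sets averaged and 0.13 with array weights; Col1a2 (1387854_at) gave 0.025, and -0.062 averaged; Col1a1 (1388116_at) gave 0.046, and -0.028 with the title number.

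With 1 array left out in turn, signs turned in these ranges. In SH rats, SO2 against air, Col1a2 (1370155_at) ran from -0.13 to 0.11 and Col3a1 from -0.054 to 0.17. In SD rats Col1a1 (1370864_at) ran from -0.57 to 0.016. Between strains in air Lamb1 ran from -0.18 to 0.086. In SO2 Col1a1 (1370864_at) ran from -0.28 to 0.22, Col1a1 (1388116_at) from -0.10 to 0.18 and Col1a2 (1387854_at) from -0.077 to 0.16. In each case the cause was not tested. Signals near the filter, such as Col12a1 and Col14a1, limit what these arrays can show.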
